A study of Mus musculus with 2 samples.

Results

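The genes described here are 9 genes of melanin synthesis and melanocytes, Tyr, Tyrp1, Dct, Pmel, Mlana, Oca2, Slc45a2, Mitf and Mc1r, chosen by name from the 24421 gene symbols of a table of read counts. All 9 are in the table, and all 9 exceeded 3 counts in both libraries. The table holds 1 RNA-seq library of whole-layer back skin labelled as under 33% strain for 5 days. It holds 1 further library, of non-stretched skin of the same day. Both came from wild type mice of the strain C57BL6/J, and the methods describe female mice 8 weeks old whose hair was in telogen, the resting phase of the hair cycle. The methods describe a glued stretching device whose initial strain was raised each day, so that 33% is the strain at the start. The number of animals behind each library is not given in the sources used here. A control of another experiment of the study had no device, and for the sequenced control this is not stated. The comparison addresses how skin under stretch differs from non-stretched skin. With 1 library per condition there is no replicate check and no p-value, and every interval below covers counting error only. The intervals therefore compare these libraries and not the conditions.

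Melanin is made in melanosomes, which are lysosome-related organelles of melanocytes. Tyrosinase (Tyr) catalyses the first and rate-limiting step, and its relatives Tyrp1 and Dct act on later intermediates of eumelanin synthesis. Pmel forms the fibrils on which the pigment is laid down, Mlana is a small melanosomal protein, and Oca2 and Slc45a2 are transport proteins that set the ionic conditions in which tyrosinase works. Mc1r is the receptor for melanocortins on the melanocyte surface, and Mitf is the transcription factor that switches on most of these genes. In the back skin of mice, pigment-making melanocytes sit in the hair follicle, above the dermal papilla, and make pigment while a hair grows, whereas melanocyte stem cells rest in the bulge and the hair germ. Mice of this strain are black and carry the nonagouti allele.

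MITF is known to bind the letters CATGTG when a T precedes them. The promoters of 4 genes are printed because they held these letters with that T within the 250 bases before the RefSeq start of transcription, so that the values of regulator and targets can be read beside the sequence. The sequences are those of RefSeq on GRCm38.p6, the assembly known as mm10, each 5′ to 3′ on the strand of its gene, with TCATGTG, on either strand, in capitals.
Tyr, chr7:87493513-87493762, minus strand: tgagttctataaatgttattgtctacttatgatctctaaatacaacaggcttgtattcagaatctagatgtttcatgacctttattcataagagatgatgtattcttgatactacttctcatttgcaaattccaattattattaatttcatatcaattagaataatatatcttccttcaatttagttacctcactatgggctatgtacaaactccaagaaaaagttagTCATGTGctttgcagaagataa
Tyrp1, chr4:80834155-80834184, plus strand: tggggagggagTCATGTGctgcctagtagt
Dct, chr14:118052247-118052496, minus strand: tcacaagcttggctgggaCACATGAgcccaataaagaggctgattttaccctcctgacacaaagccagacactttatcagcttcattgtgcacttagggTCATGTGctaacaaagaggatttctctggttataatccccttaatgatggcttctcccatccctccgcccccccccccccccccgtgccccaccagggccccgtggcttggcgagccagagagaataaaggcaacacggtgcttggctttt
Mc1r, chr8:123406832-123407081, plus strand: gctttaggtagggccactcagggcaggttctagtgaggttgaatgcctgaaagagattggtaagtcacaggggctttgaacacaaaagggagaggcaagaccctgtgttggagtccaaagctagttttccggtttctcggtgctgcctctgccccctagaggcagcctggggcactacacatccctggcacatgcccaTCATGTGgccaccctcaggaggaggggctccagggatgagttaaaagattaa

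Starts are those of RefSeq, while the gene positions given further on are those of GENCODE M21. In Tyr the match began 22 bases before the RefSeq start, in Tyrp1 47 and in Mc1r 52. Dct held a match on its own strand 151 bases before the start and another on the opposite strand 232 bases before it. The GENCODE start of Tyrp1 lies 90 bases upstream of the RefSeq start, so that its match falls within an untranslated first exon of a GENCODE transcript, and only 30 bases around it are printed. The starts differed by 25 bases in Mc1r, by 2 in Dct and by 0 in Tyr, and the windows of these 3 genes held no exon. Windows were found for 6 of the 9 genes, and TCATGTG, searched on both strands, was in those of 4 of them and in neither the window of Oca2 nor the 3 windows of Mitf. Of the 27025 genes with a window of this length, 3.72% held these 7 letters in at least 1 window, as did 3.25% of all 32851 windows. The shorter CATGTG, which lies within every TCATGTG, was in the windows of 5 of the 6 genes, Oca2 being the addition, in 13.8% of all genes with a window and in 12.3% of all windows. No sequence is printed for Pmel, Mlana and Slc45a2. A match describes the letters of the window and is not a measured binding site.

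The counts summed to 14152379 in non-stretched skin and 11648655 in stretched skin, so that 3 counts, taken as the floor of detection, correspond to 0.212 and 0.258 CPM, the count scaled to the total of its library. Levels are given as counts and CPM, and log2 fold changes are those of CPM in stretched over non-stretched skin, with an exact 95% Clopper-Pearson interval. Over the 16255 genes that exceeded the floor in either library the median was -0.12, and the values of single genes are best read against it. In whole skin, fewer melanocytes and less RNA per melanocyte cannot be told apart.

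All 9 pigment genes were lower in stretched skin, and for all 9 the interval lay wholly below 0, as it did for 33.5% of all measured genes. Their median log2 fold change was -1.53, or 1.41 lower than the median of all genes. At least 2-fold lower in CPM were 8 of the 9, against 5.47% of all genes, and none was 2-fold higher, against 6.32%. The exception was Mitf. The counts of the 9 genes together were 6543 in non-stretched and 2350 in stretched skin, and their summed log2 value was -1.20 (interval -1.27 to -1.13). Leaving out Dct, the gene with the most counts, the sum gave -1.28. The plot of CPM by library shows each gene in both libraries.

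**Figure D1:**
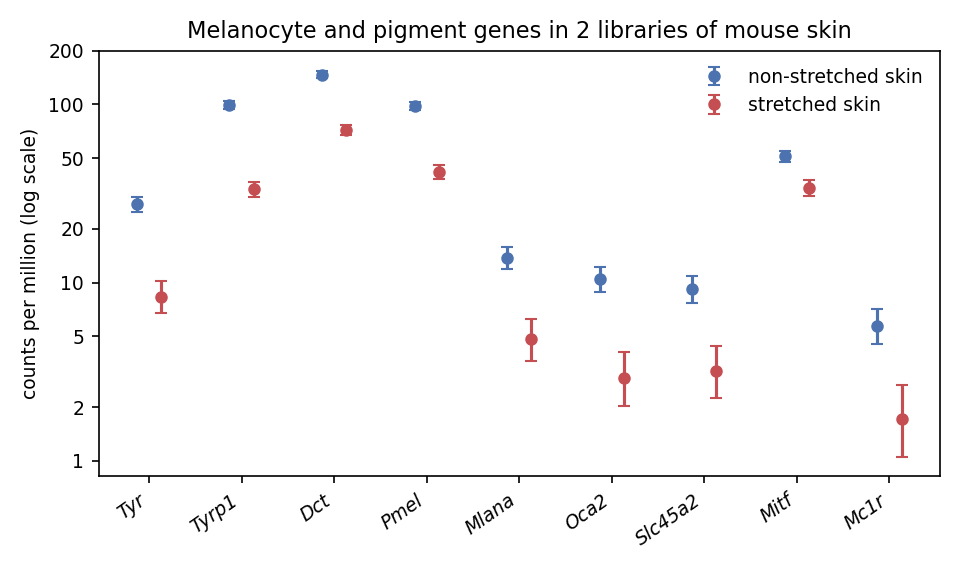
CPM (log axis) of the 9 genes in the library of non-stretched skin (blue) and of stretched skin (red); bars are exact 95% Poisson intervals of the count. Stretched skin is lower for each gene, from 147 against 71.9 CPM for Dct to 5.72 against 1.72 CPM for Mc1r, and no pair of intervals overlaps.

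Among the enzymes, Tyr, on chromosome 7 of mm10 from 87424771 to 87493512, had 389 counts in non-stretched skin and 97 in stretched skin, or 27.5 and 8.33 CPM. The log2 fold change was -1.72 (interval -2.06 to -1.40), and 1.77% of the measured genes had a lower one. Tyrosinase is the enzyme without which no melanin is made, and its counts in stretched skin scaled to 30.3% of those in non-stretched skin. Tyrp1, on chromosome 4 from 80834123 to 80851719, had 1400 and 388 counts (98.9 and 33.3 CPM), with a log2 fold change of -1.57 (interval -1.74 to -1.41). Dct, on chromosome 14 from 118012790 to 118052244, had 2087 and 837 counts, or 147 and 71.9 CPM. Its log2 fold change was -1.04 (interval -1.15 to -0.92), the smallest of the 3 enzymes, and the interval included 2-fold. Dct, also called Trp2, is the enzyme of the family that unpigmented melanoblasts and melanocyte stem cells are known to express. Dct was the gene closest to 2-fold, and with any of 4 other scalings it was between -0.97 and -0.93, which left 7 genes past 2-fold.

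The structural genes of the melanosome had a similar order of size. Pmel, on chromosome 10 from 128704195 to 128720238, had 1389 counts in non-stretched skin and 484 in stretched skin (98.1 and 41.5 CPM). The log2 fold change was -1.24 (interval -1.39 to -1.09). Of the exonic bases of Pmel, 6.06% overlap exons of Cdk2 and Dgka, and how the authors' counter treated such reads is not stated. Mlana, on chromosome 19 from 29697824 to 29708634, had 195 and 56 counts (13.8 and 4.81 CPM), and its log2 value was -1.52 (interval -1.97 to -1.08).

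The transport genes were measured on fewer reads and have wider intervals. Oca2, whose loss gives the pink-eyed dilution phenotype, lies on chromosome 7 from 56239760 to 56536518. It had 148 counts in non-stretched skin and 34 in stretched skin (10.5 and 2.92 CPM). The log2 value was -1.84 (interval -2.42 to -1.30), which was the lowest point estimate of the 9. Slc45a2, whose loss gives the underwhite phenotype, lies on chromosome 15 from 11000721 to 11029233. It had 130 and 37 counts (9.19 and 3.18 CPM), and its log2 value was -1.53 (interval -2.10 to -0.995). The intervals of the pair overlap over most of their length.

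The receptor Mc1r, on chromosome 8 from 123407107 to 123410744, had 81 counts in non-stretched skin and 20 in stretched skin, or 5.72 and 1.72 CPM. The log2 fold change was -1.74 (interval -2.52 to -1.02). Exons of another gene model, Gm38092, overlap 17.9% of the exonic bases of Mc1r, and 16.2% of its 76-base stretches occur in other genes, so its count is less certain than those of the others. The share of such stretches was 1.35% in Pmel, 0.894% in Dct, 0.0563% in Tyr and 0 in the other 5 genes.

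Mitf, on chromosome 6 from 97807052 to 98021349, was the least changed. It had 724 counts in non-stretched skin and 397 in stretched skin (51.2 and 34.1 CPM). The log2 value was -0.59 (interval -0.77 to -0.41), and 14.1% of all measured genes had a lower value. A count per gene does not separate the melanocyte promoter of Mitf, the most downstream of its start sites, from the promoters used in other cells. Without Mitf the median of the other 8 genes was -1.55.

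The rule of the study's methods asks for a product of the FPKM values (EV) above 10 and at least a 2-fold difference. FPKM is CPM divided by the length of the exons in kilobases, and here 1 was added to each value, which the methods do not state. The study took its FPKM from Cufflinks, whereas here they were made from the counts. With that addition 4 of the 9 genes were downregulated, Tyr, Tyrp1, Pmel and Mlana, and none was upregulated. The rule called 2.44% of the 10910 genes past the EV filter downregulated and 2.61% upregulated. Of the 9 genes 6 passed the filter. With 1 added, Tyr was just inside it, with an EV of 10.6, and Slc45a2 was just outside, with 8.42, as were Oca2 (6.32) and Mc1r (3.79). Dct passed the filter but its log2 difference in FPKM + 1 was -0.98, and that of Mitf was -0.51. Without the added 1 the EV of Tyr was 4.53, below the filter, and the 4 genes downregulated were Tyrp1, Dct, Pmel and Mlana, beside 2.86% of all genes past the filter, so that the calls of Tyr and Dct depend on that choice.

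The members differed among themselves in how far they were lower, and this comparison needs no scaling of the libraries, because each gene is set against another gene of the same library. Relative to Mitf, the transcripts of all 8 other genes were lower in stretched skin, with exact intervals of the conditional odds ratio wholly below 0. The log2 ratio of the folds was -1.25 for Oca2 (interval -1.87 to -0.68), -1.14 for Tyr (-1.52 to -0.76) and -0.98 for Tyrp1 (-1.23 to -0.74). It was smallest in size for Dct, at -0.45 (-0.67 to -0.24), followed by Pmel at -0.65 (-0.89 to -0.42). Of the 36 pairs of members, 16 had an interval that excluded 0, and these were all 8 pairs with Mitf, 5 of the other 7 pairs with Dct, and 3 of the 21 pairs among the remaining 7 genes. The 3 were Pmel against Tyr, Tyrp1 and Oca2, with Pmel less reduced each time. For the other 20 pairs a difference was not detectable at this depth, and the intervals were not adjusted for the number of pairs.

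**Figure D2:**
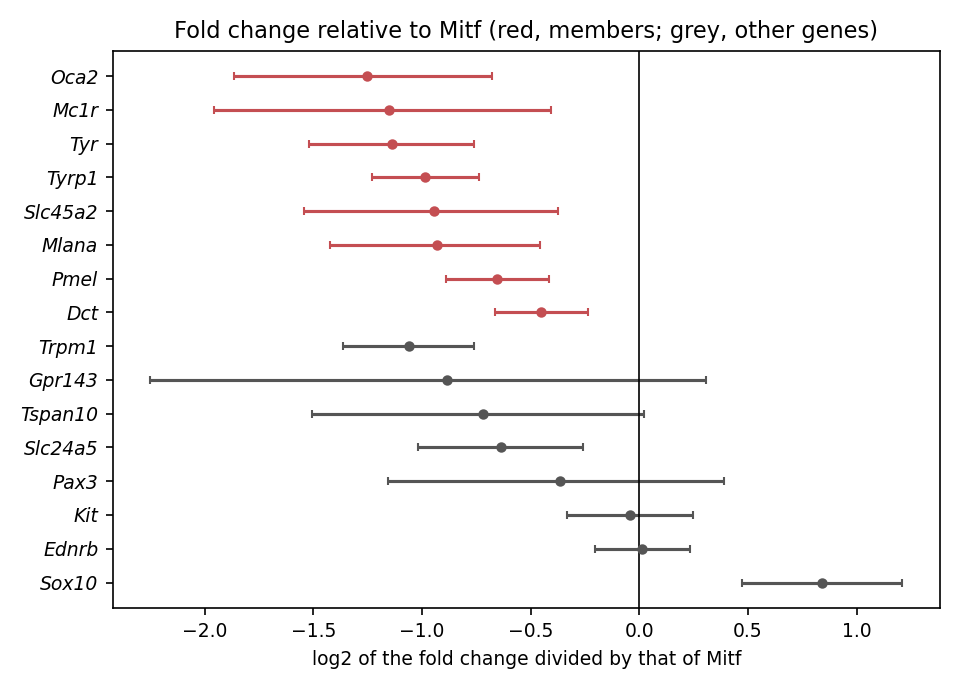
Log2 of the fold change of each gene divided by the fold change of Mitf, with the exact 95% interval of the conditional odds ratio; red points are the other 8 melanocyte and pigment genes and grey points other genes of pigment cells. Red points lie between -1.25 (Oca2) and -0.45 (Dct) and none of their intervals reaches 0, while Kit and Ednrb lie at -0.04 and 0.01 and Sox10 at 0.84. Among the grey points, Trpm1 (-1.06) and Slc24a5 (-0.64) also have intervals wholly below 0. Gpr143 (-0.89), Tspan10 (-0.72) and Pax3 (-0.36) have intervals that include 0.

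Per length, the order of the genes was nearly kept. In non-stretched skin the FPKM was 42.8 for Pmel, 35 for Tyrp1, 25 for Dct, 13 for Mlana, 8.26 for Mitf, 3.87 for Tyr, 3.08 for Slc45a2, 2.64 for Oca2 and 1.57 for Mc1r. Only Slc45a2 and Oca2 among the neighbours in that order did not differ beyond counting error (ratio 1.17, interval 0.914 to 1.49). In stretched skin Pmel was again first, with an FPKM of 18.1, Dct (12.2) and Tyrp1 (11.8) did not differ beyond counting error, and Mitf (5.50) stood above Mlana (4.55) without a detectable difference. Tyr (1.17), Slc45a2 (1.06), Oca2 (0.737) and Mc1r (0.472) were the lowest in stretched skin and could not be ordered among neighbours. Of the summed FPKM of the 9 genes, Mitf held 6.10% in non-stretched skin and 9.89% in stretched skin, Dct 18.5% and 21.9%, and Tyrp1 25.9% and 21.2%.

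Other genes known to be enriched in pigment cells were less uniform. Of 14 such genes, 10 had an interval wholly below 0, none wholly above, and 4 were at least 2-fold lower, with a median of -0.60, where the shares of all measured genes were 33.5%, 18.1% and 5.47%. These counts hold for scaling by library totals. TMM, upper quartile and median of ratios scaling add 0.10 to 0.11 to each log2 value. That would put the intervals of Sox10 and Bace2 (lower ends -0.07 and -0.04) wholly above 0. The interval of Mlph (upper end -0.08) would then include 0. Trpm1, a cation channel of melanocytes, had 685 counts in non-stretched skin and 180 in stretched skin (log2 fold change -1.65, interval -1.89 to -1.41). Slc24a5, a melanosomal ion exchanger, had 292 and 103 counts (-1.22, interval -1.56 to -0.89). Tspan10, a tetraspanin, had 66 and 22 counts (-1.30, interval -2.07 to -0.59), and the melanosomal receptor Gpr143 had 27 and 8 (-1.47, interval -2.82 to -0.30). Of the 14 genes 9 had a promoter window, and 3 of these, Trpm1, Slc24a5 and Tspan10, held TCATGTG, beside 3.72% of all genes with a window. No window was found for Gpr143.

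The other 10 genes of that list were between -0.95 and 0.25. Rab27a (254 and 205 counts, -0.03) and Rab38 (329 and 248, -0.13), which act in melanosome transport and cargo delivery, and the protease Bace2 (270 and 258, 0.22) had intervals that included 0. Mlph, a partner of Rab27a, had 99 and 55 counts (-0.57, interval -1.07 to -0.08), and Mreg, which acts in melanosome transfer, had 886 and 510 (-0.52, interval -0.68 to -0.36). Ednrb, the endothelin receptor of melanoblasts, had 1566 and 867 counts (-0.57, interval -0.69 to -0.45), and Kit, the receptor for stem cell factor, had 470 and 250 (-0.63, interval -0.86 to -0.41). Relative to Mitf neither was distinguishable, with log2 ratios of 0.01 (-0.20 to 0.23) and -0.04 (-0.33 to 0.25). Pax3, which acts upstream of Mitf, had 54 and 23 counts (-0.95, interval -1.72 to -0.22). Sox10, the neural crest factor that acts upstream of Mitf and Dct, had 166 counts in non-stretched skin and 163 in stretched skin, or 11.7 and 14 CPM (0.25, interval -0.07 to 0.58). Relative to Sox10 all 9 pigment genes were lower, from -2.09 (interval -2.76 to -1.45) for Oca2 to -0.84 (-1.21 to -0.47) for Mitf. Gpnmb, a melanosomal protein that macrophages also make, had 1830 and 887 counts (-0.76, interval -0.88 to -0.65).

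**Figure D3:**
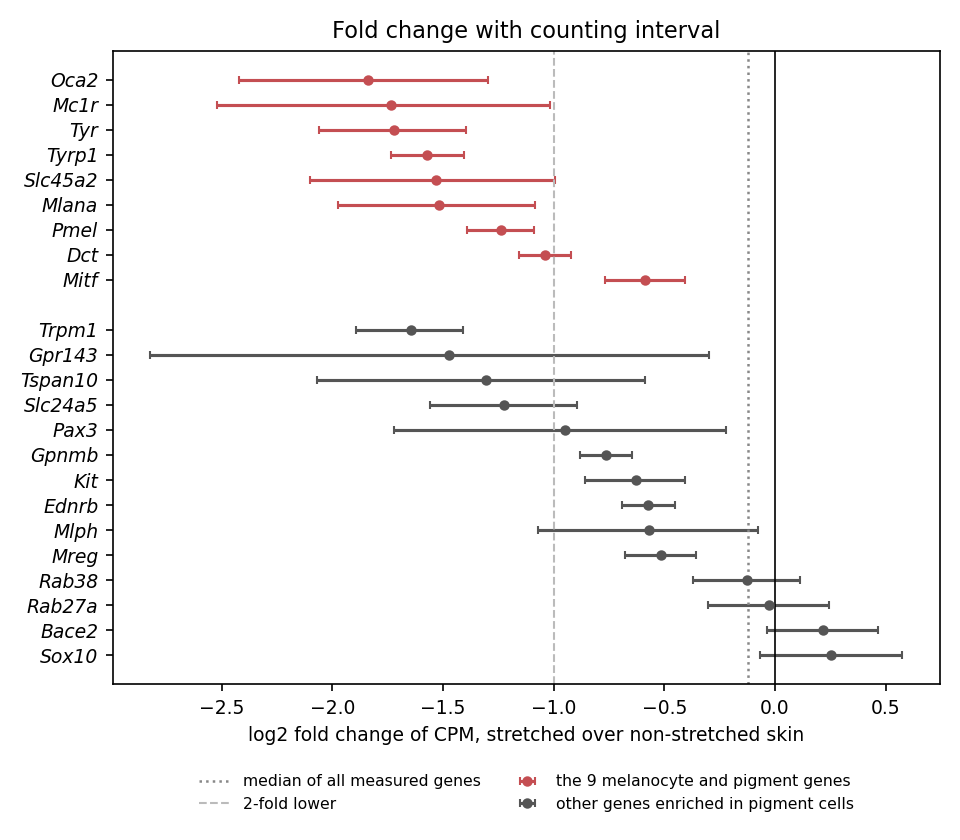
Log2 fold change of CPM in stretched over non-stretched skin with the exact 95% interval, for the 9 melanocyte and pigment genes (red) and 14 other genes enriched in pigment cells (grey); the dotted line is the median of all measured genes (-0.12) and the dashed line marks 2-fold lower. The red points run from -1.84 (Oca2) to -0.59 (Mitf), and the grey ones from -1.65 (Trpm1) to 0.25 (Sox10).

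Several of these genes are used by other cells of the skin, whose markers moved in their own ways. Each of 10 macrophage genes had its interval above 0, as had 18.1% of all measured genes, and they summed to 863 CPM in non-stretched and 2116 CPM in stretched skin, and 9 of the 10 were at least 2-fold higher (6.32% of all genes). Lyz2, the lysozyme of myeloid cells, had 3975 and 8471 counts (1.37), Csf1r 1763 and 3216 (1.15), Adgre1 472 and 1148 (1.56), Cd14 116 and 327 (1.78) and Fcgr1 49 and 259 (2.68). Of 8 mast cell genes, which belong to a lineage that needs Kit and Mitf, 7 had an interval wholly above 0, and the summed level was 236 and 365 CPM. The abundant proteases Cpa3 (936 and 993 counts, 0.37) and Mcpt4 (868 and 1076, 0.59) were below 2-fold, while Hdc (122 and 282, 1.49), Tpsab1 (8 and 25, 1.92) and Fcer1a (5 and 17, 2.05) were past it. The 10 Schwann cell genes, a list that includes Sox10, had a summed level of 733 and 808 CPM, with 3 intervals above 0 (18.1% of all genes), 1 below (33.5%) and 6 including 0. Pmp22, a gene of peripheral myelin, had 3362 and 3193 counts (0.21). The part of macrophages and mast cells in the counts of Mitf, Kit and Gpnmb, and of Schwann cells in those of Sox10, was not tested.

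The machinery that builds and moves melanosomes but serves other organelles too stood near the median of all genes. Of 22 such genes, 6 had an interval wholly below 0, 5 wholly above, and 11 included 0, with a median of -0.08, where 33.5% of all measured genes had an interval below 0 and 18.1% above. Some of these intervals, such as that of Ap3d1, end closer to 0 than the 0.10 that TMM scaling adds. The counts therefore depend on the scaling by library totals. The adaptor subunit Ap3d1 had 2013 and 1720 counts (0.05, interval -0.04 to 0.15), and Cd63, a tetraspanin of late endosomes and melanosomes, had 2922 and 3823 (0.67, interval 0.60 to 0.74). The single gene past 2-fold was Slc7a11, a cystine transporter that supplies pheomelanin synthesis, with 94 counts in non-stretched skin and 35 in stretched skin (-1.14, interval -1.75 to -0.57).

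Among 13 genes of signalling to melanocytes, which are ligands, receptors and modifiers, 7 had an interval wholly below 0 (33.5% of all genes), none wholly above (18.1%), and 6 included 0, with a median of -0.40. The receptors Kit and Ednrb were also counted in the list of other pigment cell genes. Kitl, the ligand of Kit, had 1055 counts in non-stretched skin and 560 in stretched skin (-0.63, interval -0.78 to -0.48), and Edn3, the ligand of Ednrb, had 62 and 31 (-0.72, interval -1.39 to -0.07). Corin, a protease of the dermal papilla that acts on agouti signalling, had 97 and 31 counts (-1.36, interval -2.00 to -0.77). Mgrn1, a ubiquitin ligase whose loss darkens the coat, had 1059 and 897 (0.04, interval -0.09 to 0.17). The agouti gene, listed under the symbol a, had 4 and 6 counts, and Pomc, the precursor of the melanocortins, had 4 and 2, so that no difference was detectable at this depth in either.

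Among 11 transcription factors around Mitf, 6 had an interval wholly below 0 (33.5% of all genes) and 4 wholly above (18.1%). The lowest were Lef1, the WNT effector, with 783 and 185 counts (-1.80, interval -2.04 to -1.57), and Sox5, with 192 and 46 (-1.78, interval -2.28 to -1.31). Lef1 is also a gene of the hair matrix. Tfap2a, which melanocytes share with keratinocytes, had 1141 and 560 counts (-0.75, interval -0.89 to -0.60), while Zeb2 had 1071 and 1184 (0.43, interval 0.31 to 0.55). Tfec, a relative of Mitf in macrophages, had 8 counts in non-stretched skin and 41 in stretched skin (2.64, interval 1.53 to 3.94).

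Listed genes of the hair shaft, inner root sheath and hair matrix, and cell cycle genes, were also lower in stretched skin. All 23 keratins of the hair shaft and inner root sheath were at least 2-fold lower in stretched skin, as were 5.47% of all measured genes, with a median of -3.11 and a summed level of 11182 CPM in non-stretched and 1895 CPM in stretched skin. Krt71 of the inner root sheath had 60382 and 8796 counts (-2.50, interval -2.53 to -2.47), and Krt83 of the hair shaft had 2154 and 80 (-4.47, interval -4.81 to -4.15). The hair shaft keratins Krt81 (1343 and 52 counts, -4.41) and Krt33b (1653 and 68, -4.32) were as low. The summed counts gave -2.56 (interval -2.58 to -2.54) for these keratins against -1.20 (interval -1.27 to -1.13) for the 9 pigment genes, and the intervals do not overlap. Of the 9 regulators of the hair matrix, in which the pigment cells lie, 7 were at least 2-fold lower (5.47% of all genes) and all 9 had an interval below 0 (33.5%), with a median of -1.65, and Msx2 among them had 1219 and 235 counts (-2.09, interval -2.30 to -1.89). Hoxc13 had 1341 and 301 (-1.87), Dlx3 3081 and 734 (-1.79) and Gata3, a factor of the inner root sheath, 2055 and 1042 (-0.70). All 10 cell cycle genes had an interval below 0, beside 33.5% of all genes, with a median of -1.004, as for Mki67 with 2847 and 1126 counts (-1.06, interval -1.16 to -0.96), Top2a with 2624 and 978 (-1.14) and Bub1 with 268 and 89 (-1.31). Krt25, also of the inner root sheath, had 29044 and 5035 counts (-2.25). Inner root sheath keratins are known as genes of growing follicles, and both libraries held their counts although the methods describe mice in telogen. The part that hair growth in the skin of either library had in the pigment gene values was not tested, and with 1 library per condition it cannot be told apart from stretch.

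**Figure D4:**
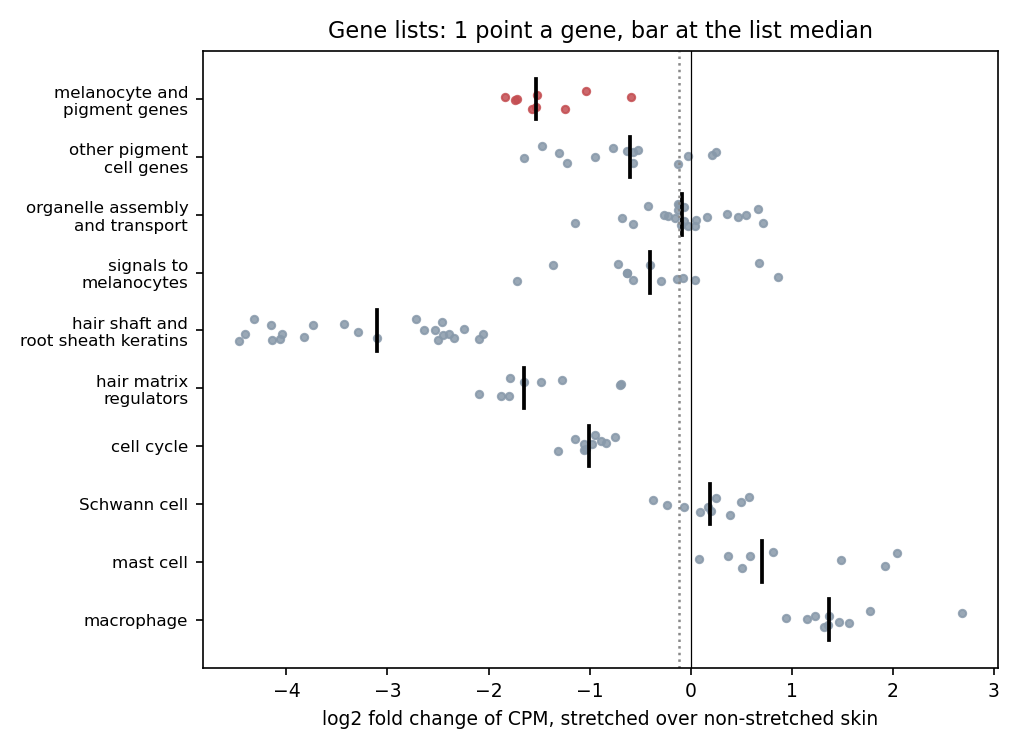
Log2 fold change of CPM in stretched over non-stretched skin for the measured genes of 10 lists, 1 point per gene, spread vertically within its row for legibility; black bars are list medians and the dotted line is the median of all measured genes (-0.12). The pigment genes (median -1.53) lie between the hair keratins (-3.11) and the cell cycle genes (-1.004), beside the hair matrix regulators (-1.65), and macrophage genes lie on the other side of 0 (1.37).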

How the data were processed

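Total RNA of whole-layer skin was sequenced in single-end reads of 76 bases. According to the methods, reads were filtered with FASTX-Toolkit 0.0.13.2 (Phred score of at least 20, longer than 35 bases) and aligned to mm10 with TopHat2 2.1.0. The authors deposited a whole-number count of reads per gene symbol, without normalization, for 1 library per condition. Which program counted the reads, on which gene models, and how it handled strand or reads of overlapping genes, is not given in the sources used here. No per-sample column was left out.

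CPM was the count scaled to its library total, and FPKM was made with the union of exons in GENCODE M21. Symbols were matched by name (23384) or synonym (650), and 387 had no length. The agouti gene was matched by hand to the symbol a. In a fold change, counts under 3 were raised to that floor. Fold changes carry exact 95% Clopper-Pearson intervals, levels exact Poisson intervals, and ratios of folds the exact interval of the conditional odds ratio. The calling rule of the methods was applied to the whole table with 1 added to each FPKM, a pseudocount the methods do not state, and with FPKM made from the counts in place of the Cufflinks estimates of the study, which were not used here. Depth limits most the genes with few counts, such as Mc1r, Slc45a2, Oca2 and Gpr143, and reads without molecular identifiers make the intervals lower limits of the error.

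The 9 genes and all gene lists were chosen with earlier results of these data known. Besides the 9 genes, the text names up to 3 genes of each list in each direction that were past 2-fold with an interval on that side of 0, and the 2 genes of each list with the most counts, except 1 gene that is not reported here. Slc24a5, Rab27a, Rab38, Bace2, Mlph, Mreg, Pax3, Kit, Kitl, Sox10, Edn3, Pomc and the agouti gene were named after their values were seen, for their known roles or to complete a list. Libraries were also scaled with edgeR 4.0.16 (TMM), by upper quartile, with DESeq2 1.42.0 (median of ratios), and by totals that omit the 50 most abundant genes. Further alternatives were other pseudocounts, filters and lengths, and leaving out Mitf or Dct. The scripts were tested on simulated data. Python 3.11.15, numpy 2.4.6, pandas 2.3.3, scipy 1.17.1, matplotlib 3.10.9 and R 4.3.3 were used.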

Additional observations from a re-analysis of the deposited data

How the results depend on the processing

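All 9 genes stayed lower, with intervals below 0, under the 4 other scalings, which add 0.10 (TMM), 0.11 (median of ratios), 0.10 (upper quartile) and 0.06 (totals that omit the 50 most abundant genes) to every log2 fold change. Counts of intervals in the other gene lists were not repeated under these scalings. An interval that ends within 0.11 of 0 can come to include or exclude 0 there. The 45 recomputed values of single genes kept their direction and their intervals below 0 where an interval was recomputed, and the median ranged from -1.55 without Mitf to -1.31 with 1 CPM added to both values. The log2 fold change of the summed counts, with its narrow interval, was -1.09 after TMM, -1.09 after upper quartile scaling, -1.09 after median of ratios scaling, and -1.28 without Dct. These values lie outside the interval of -1.27 to -1.13 found with library totals, which covers counting error and not the choice of scaling or genes. Summed counts under other scalings, and values without Mitf, were alternatives chosen after seeing the data. The number of genes downregulated by the calling rule was 2 with an EV above 100, beside 130 of all 5359 genes past that filter (2.43%), and 8 (each gene but Mitf) with CPM in place of FPKM, beside 442 of 13513 (3.27%), against 4 beside 266 of 10910 (2.44%). Without a pseudocount it was again 4, with Dct in place of Tyr, beside 277 of all genes, and with the length of the longest transcript Dct was added to make 5, beside 285. No paired analysis was possible because each condition has a single library, and for the same reason none was left out in turn.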

Other observations

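Among 8 genes of the stem cell region of the follicle, where melanocyte stem cells lie, 5 had an interval wholly below 0 (33.5% of all measured genes) and 3 wholly above (18.1%), with a median log2 fold change of -0.33. Not all of them are particular to that region. Krt15 of the bulge had 15280 counts in non-stretched skin and 9127 in stretched skin (-0.46, interval -0.50 to -0.43), and Krt24, the single gene past 2-fold, had 62 and 20 (-1.35, interval -2.16 to -0.60). Col17a1, a collagen that anchors basal keratinocytes and bulge cells, had 11405 and 10922 counts (0.22, interval 0.18 to 0.26).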
